A study of Mus musculus with 12 samples.

Results

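Prom1, Abi3bp, Chil1 and Tmem140, genes of the cycling mouse uterus, were described over the stages of the estrous cycle. They were chosen by their measured values in these same libraries, for a level that peaked in estrus, and they are 4 of the 35896 genes to which the deposited transcripts could be assigned. The samples were whole uteri of wild-type female Swiss Webster mice, an outbred stock, aged 8 to 12 weeks. Each stage, proestrus, estrus, metestrus and diestrus, was represented by 3 uteri, no treatment is named for any group, and the sources used here do not say how a stage was assigned. The replicate numbers below are those of the labels: 1, 2 and 3 for proestrus, 3, 4 and 5 for estrus and diestrus, and 5, 6 and 7 for metestrus. Since estrus levels chose the genes, their differences from estrus are given as a description without a test, and tests were kept for differences among the other stages.

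The estrous cycle is driven by ovarian hormones: estrogen rises through proestrus and makes the uterine epithelium grow, and progesterone from the corpora lutea acts after ovulation, through metestrus and diestrus. Prom1 encodes prominin 1 (CD133), a cholesterol-binding membrane glycoprotein that sits in microvilli and other protrusions at the apical face of epithelial cells. Abi3bp encodes a secreted extracellular matrix protein with fibronectin type III repeats, and Chil1 encodes a secreted chitinase-like lectin that binds chitin but lacks chitinase activity, the mouse counterpart of human CHI3L1 (YKL-40), made by macrophages, neutrophils and some epithelia. Tmem140 encodes a small multipass membrane protein reported among interferon-induced genes, and its locus overlaps Cyren, which encodes an inhibitor of classical end joining of DNA breaks on the opposite strand.

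RNA was profiled by 3' TagSeq, which sequences fragments near the polyadenylated end of a transcript. The 12 libraries held between 1652841 and 2200563 estimated counts, and levels are given as CPM, that is counts scaled to library size with TMM factors over the tested genes. A count of 0 still allows up to 3 counts, which is 1.37 to 1.83 CPM in these libraries. Of all genes, 12052 passed the minimum count and were tested, the 4 chosen genes and Cyren among them. Markers of uterine tissue were present, with 12 of 12 epithelial, 10 of 10 stromal and 8 of 8 smooth muscle markers tested, whereas 2 of 10 ovarian markers reached the minimum. In such bulk tissue, fewer cells of a type and less RNA per cell cannot be told apart.

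Prom1 (ENSMUSG00000029086) is a protein-coding gene at chr5:43993620-44102032 on the minus strand (GRCm38). It stood at 155, 212 and 211 CPM in estrus replicates 3, 4 and 5. It was at 41.6, 30.2 and 26.4 CPM in proestrus, 33.2, 29.7 and 34.6 CPM in metestrus, and 22.4, 18.3 and 17.0 CPM in diestrus. The lowest estrus uterus was 3.71 times the highest of the other 9. The estrus mean of 193 ± 32.9 CPM (SD, n = 3) was 5.88 times that of proestrus, the next highest stage, at 32.7 ± 7.94 CPM (SD, n = 3).

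Abi3bp (ENSMUSG00000035258, chr16:56477878-56690135, plus strand) varied least of the 4 within estrus. Its estrus libraries gave 89.7, 92.1 and 82.4 CPM, a coefficient of variation of 5.71%. Levels were 21.1, 15.6 and 19.3 CPM in proestrus, 33.7, 25.2 and 25.0 CPM in metestrus, and 29.9, 30.6 and 35.7 CPM in diestrus. Every estrus value lay above every other value, and the estrus mean of 88.1 ± 5.03 CPM (SD, n = 3) was 2.75 times that of diestrus, 32.1 ± 3.13 CPM (SD, n = 3). Abi3bp thus had the smallest step of the 4 genes, and its next highest stage was the one before the cycle restarts, not a neighbour of estrus.

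Chil1 (ENSMUSG00000064246, chr1:134182176-134190181, plus strand) was nearly undetected outside estrus and uneven within it. The 3 estrus uteri gave 20.4, 343 and 92.5 CPM, from 33, 599 and 202 counts, a 16.8-fold range. Proestrus libraries were at 3.99, 2.70 and 0.507 CPM, metestrus libraries at 2.07, 0.631 and 5.37 CPM, and diestrus libraries at 0.997 and 0.989 CPM and, in replicate 5, at 0. The estrus values did not overlap with any other, and the lowest of them was 3.80 times the highest of the rest. The estrus mean, 152 ± 169 CPM (SD, n = 3), was 56.4 times that of metestrus, and 20.99 times without estrus replicate 4, which held most of the counts. Against diestrus, 834 counts stood over 4, a ratio of 218 with an exact counting interval of 84.7 to 801 (95%), which covers counting error only.

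Tmem140 (ENSMUSG00000057137) also came close to 0 in another stage, but in proestrus. Its 3 proestrus libraries held 1, 1 and 0 counts, at 0.570, 0.539 and 0 CPM, and its estrus libraries 48.9, 82.4 and 83.8 CPM. Metestrus was split, at 29.6, 0.631 and 14.3 CPM in replicates 5, 6 and 7, and diestrus gave 3.99, 1.98 and 2.83 CPM. The estrus mean of 71.7 ± 19.8 CPM (SD, n = 3) was 4.83 times that of metestrus, 14.8 ± 14.5 CPM (SD, n = 3), and this ratio depended on single metestrus libraries: it was 9.60 without replicate 5 and 3.27 without replicate 6. The estrus uteri were above all others, with the lowest of them 1.65 times metestrus replicate 5.

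**Figure D1:**
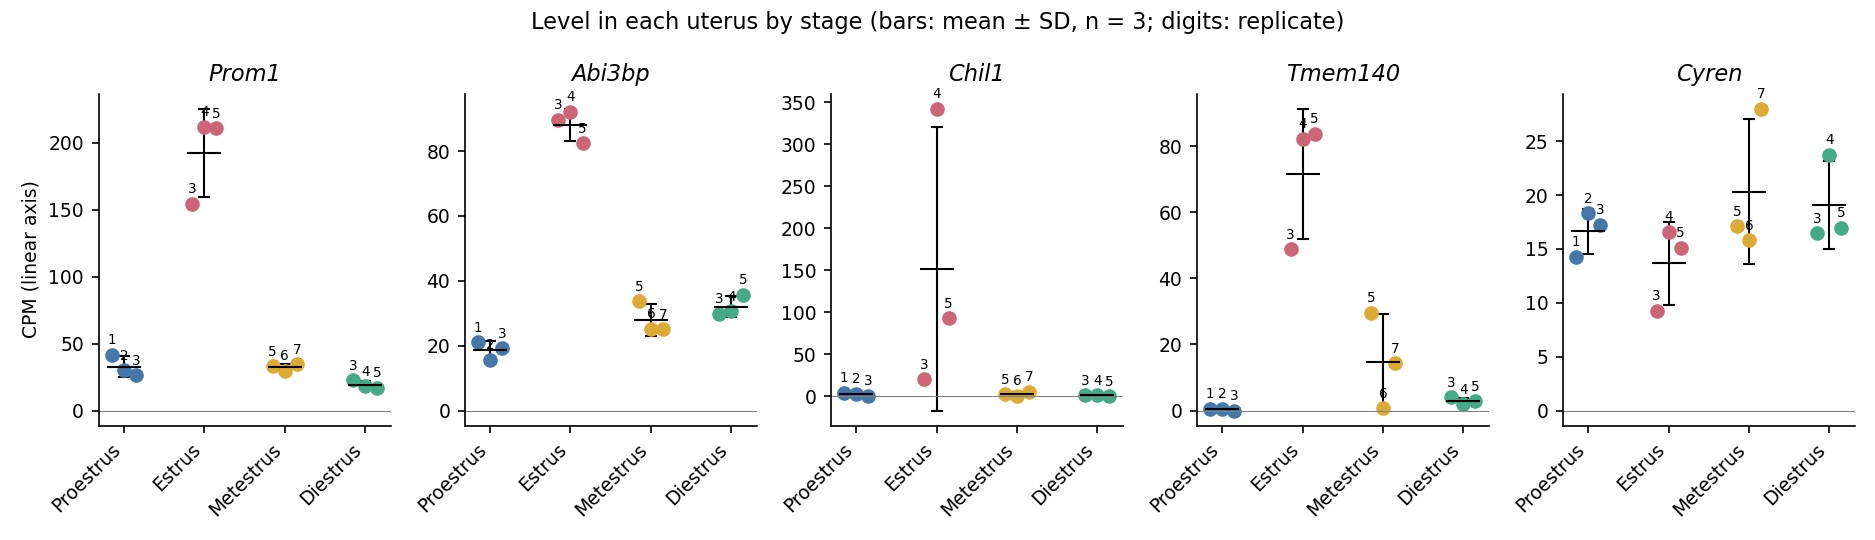
CPM of Prom1, Abi3bp, Chil1, Tmem140 and Cyren in each of the 12 uteri (points, with the replicate number) on linear axes that differ between panels, by stage; black bars are the mean and SD of 3 uteri. The estrus points lie above all others for the 4 chosen genes and not for Cyren, Chil1 spreads from 20.4 to 343 CPM within estrus, and Tmem140 spreads from 0.631 to 29.6 CPM within metestrus.

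Estrus restriction differed in degree among the 4. As a share of the sum of the stage means, estrus held 96.4% for Chil1, 79.8% for Tmem140, 69.5% for Prom1 and 52.8% for Abi3bp, where the median of the 11413 tested genes with a mean of at least 5 CPM was 24.8%. By this share Chil1 ranked 3, Tmem140 27, Prom1 55 and Abi3bp 145 among those genes. The ranks restate what the genes were chosen for.

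The stretch of 250 bases before each annotated start site was read for short regulatory motifs, because genes that rise in the same uteri may be compared at their promoters. RefSeq promoters on GRCm38.p6 matched 3 of the 4 genes, Prom1 with a pair of start sites, Chil1 and Tmem140; Abi3bp had no entry. They are printed 5' to 3' on the strand of the gene, ending at the base before the start, with capitals marking the AP-1 motif TGANTCA in Prom1 and the interferon-stimulated response element in Tmem140, searched as GAAA, any 2 bases and GAAA. The Prom1 stretches are chr5:44101737-44101986 and chr5:44094769-44095018, both on the minus strand. The Chil1 stretch is chr1:134181906-134182155 and the Tmem140 stretch chr6:34862896-34863145, both on the plus strand.
Prom1, start site 1: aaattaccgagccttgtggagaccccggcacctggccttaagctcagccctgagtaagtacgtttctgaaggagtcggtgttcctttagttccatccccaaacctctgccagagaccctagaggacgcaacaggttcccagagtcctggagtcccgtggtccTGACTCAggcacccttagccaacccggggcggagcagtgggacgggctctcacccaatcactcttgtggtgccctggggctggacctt
Prom1, start site 2: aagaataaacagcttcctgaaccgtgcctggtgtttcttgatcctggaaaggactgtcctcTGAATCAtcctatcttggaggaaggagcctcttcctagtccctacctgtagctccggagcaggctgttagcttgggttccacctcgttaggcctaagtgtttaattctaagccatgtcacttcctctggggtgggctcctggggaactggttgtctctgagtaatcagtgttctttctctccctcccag
Chil1: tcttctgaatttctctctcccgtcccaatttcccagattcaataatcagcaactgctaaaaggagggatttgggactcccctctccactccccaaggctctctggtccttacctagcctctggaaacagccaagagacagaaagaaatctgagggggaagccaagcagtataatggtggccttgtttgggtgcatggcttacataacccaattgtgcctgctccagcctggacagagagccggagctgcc
Tmem140: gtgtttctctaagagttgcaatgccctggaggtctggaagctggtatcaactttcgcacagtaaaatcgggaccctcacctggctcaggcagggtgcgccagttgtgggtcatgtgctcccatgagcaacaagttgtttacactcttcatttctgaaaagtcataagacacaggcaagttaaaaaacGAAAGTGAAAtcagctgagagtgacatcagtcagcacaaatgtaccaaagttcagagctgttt

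Both Prom1 stretches held an AP-1 motif, TGACTCA at bases -88 to -82 and TGAATCA at bases -189 to -183 from the start, a motif found in 6.75% of the 32851 mouse promoter stretches of the same length. Tmem140 held the interferon-stimulated response element once, as GAAAGTGAAA at bases -63 to -54, and that motif was found in 2.98% of all stretches. A total of 9 motifs were searched on both strands. The palindromic estrogen response element, GGTCA and TGACC parted by any 3 bases, was held by 0.0639% of all stretches. It, the progesterone and glucocorticoid response element, GNACA and TGTNC parted by any 3 bases (0.387%), the STAT motif TTCNNNGAA (7.02%), the NF-kappaB motif, GGG and TTTCC parted by any 2 bases (1.41%), and the TATA motif TATAAA (12.4%) had no match in the stretches of the 3 genes. CCAAT (33.8%) was matched by Prom1 at its start site 1 and at a pair of places by Chil1, and the short GGTCA (35.2%), which is contained in the palindromic element, by Tmem140. A match is a run of letters and says nothing of binding, and the 3' reads do not show which Prom1 start site was in use.

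Differences among proestrus, metestrus and diestrus, which did not choose the genes, were tested with edgeR's quasi-likelihood test over all 12 libraries, with Benjamini-Hochberg adjustment over the 12052 genes. Prom1 and Abi3bp reached the minimum count without their estrus libraries. Of these 2 genes, 1 was higher and 1 was lower in proestrus than in diestrus, where 4.62% of all tested genes were higher and 3.91% lower. Neither passed between metestrus and proestrus, where 2.49% of all tested genes were higher and 1.82% lower, or between metestrus and diestrus, where 0.0913% were higher and 0.133% lower. Chil1 and Tmem140 reached the minimum only through their estrus libraries and dropped out when 2 other stages were fitted alone, so they are not counted here, and their values in these stages are given as a description with no call.

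Prom1 and Abi3bp moved in opposite directions across the turn from diestrus to proestrus. Prom1 was higher in proestrus than in diestrus by 0.76 ± 0.21 log2 units (SE), or 1.69-fold, with an adjusted p of 0.0375 (edgeR) and all 3 proestrus uteri above all 3 diestrus uteri. Abi3bp fell by 0.78 ± 0.18 log2 units (SE) from diestrus to proestrus, 1.71-fold, with an adjusted p of 0.0148 (edgeR) and again no overlap between the uteri. Prom1 lost its call without proestrus replicate 1 (adjusted p of 0.157, edgeR), and held it in 6 of the 12 fits that each left out 1 library; it was also lost with library totals, limma-voom or counts scaled from TPM (adjusted p of 0.0694, 0.0892 and 0.0663). Abi3bp lost its call in 2 of 12 such fits, without proestrus replicate 2 (adjusted p of 0.0801) or diestrus replicate 5 (adjusted p of 0.0622, edgeR), and with counts scaled from TPM (adjusted p of 0.27).

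For Prom1 the order of the levels was estrus, proestrus, metestrus, diestrus, and proestrus and metestrus did not differ beyond their spread: the difference was -0.01 on the log2 scale, with a 95% interval of -0.40 to 0.39. Metestrus was above diestrus in every uterus for this gene, by 0.75 ± 0.21 log2 units (SE), but with an adjusted p of 0.169 (edgeR) the difference did not pass. For Abi3bp the order was estrus, diestrus, metestrus, proestrus. Its metestrus and diestrus uteri overlapped (difference -0.19 on the log2 scale, 95% interval -0.52 to 0.15), and metestrus exceeded proestrus by 0.59 ± 0.18 log2 units (SE) with an adjusted p of 0.0813 (edgeR).

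Tmem140, which entered the fit through its estrus libraries, held 82 counts in metestrus against 2 in proestrus, a ratio of 44.1 with an exact counting interval of 11.8 to 370 (95%). That interval covers counting error only and not the spread between uteri, whose metestrus counts were 57, 1 and 24 in replicates 5, 6 and 7. The fitted difference was 5.17 ± 1.11 log2 units (SE). Metestrus replicate 6, at 1 count, was like the proestrus libraries, and it exceeded the highest of them, at 0.570 CPM, by less than the value of 1 count. The fitted difference between metestrus and diestrus was 2.36 ± 0.75 log2 units (SE), and the uteri of these stages overlapped. Proestrus was below diestrus in every uterus for Tmem140, on 2 counts against 17. The fitted difference was -2.81 log2 units, with a 95% interval of -5.74 to 0.11 that includes 0.

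Chil1 also entered the fit through estrus. Its fitted differences were 1.67 log2 units between proestrus and diestrus (95% interval -2.35 to 5.69), 1.87 between metestrus and diestrus (-2.09 to 5.83) and 0.20 between metestrus and proestrus (-2.91 to 3.31). These rest on 13, 14 and 4 counts over the 3 libraries of proestrus, metestrus and diestrus.

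**Figure D2:**
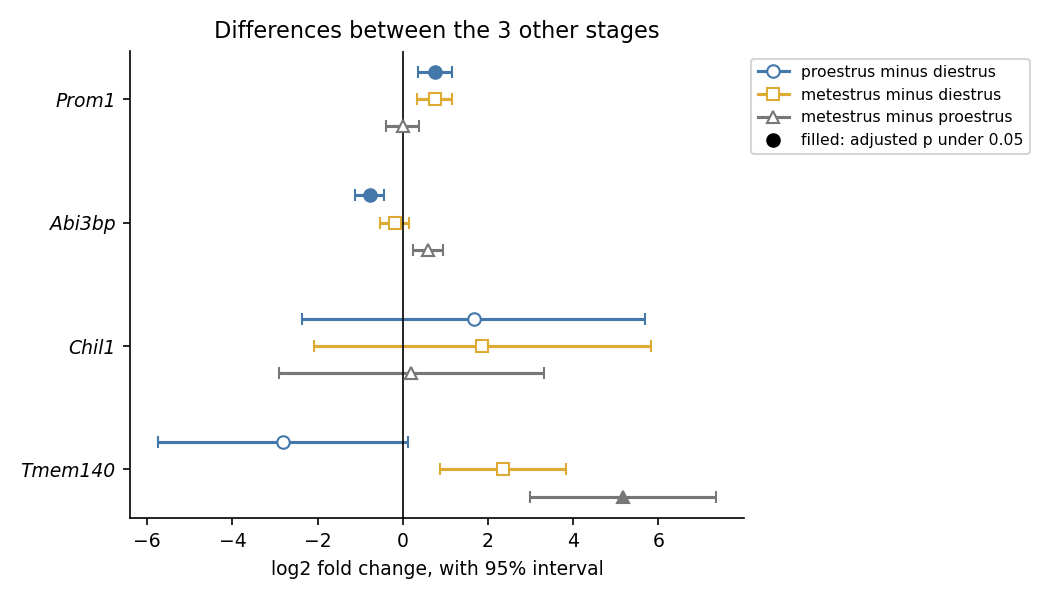
Differences of the 4 genes among proestrus, metestrus and diestrus, as log2 fold changes from edgeR with 95% intervals (horizontal bars); filled symbols have an adjusted p under 0.05. The intervals of Prom1 and Abi3bp are narrow, with proestrus minus diestrus at 0.76 and -0.78, and those of Chil1 span 0 in all 3 comparisons. Chil1 and Tmem140 entered the fit through estrus, so their symbols are a description with no call.

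The reads of each gene fell on few of its annotated transcripts. Of the 19 Prom1 transcripts in the files, Prom1-211 took 91.0% of the counts, and its share ran from 87.0% in proestrus to 94.8% in metestrus. That transcript ends at base 43993622 of chromosome 5, as do 3 longer coding forms, Prom1-203, Prom1-205 and Prom1-206, so 3' reads assigned to it may come from the longer forms that share the end. Abi3bp-202 took 63.2% and Abi3bp-206 took 33.6% of the Abi3bp counts, and the Abi3bp-202 share in estrus, 62.0%, lay between those of proestrus (54.7%) and metestrus (71.9%). Chil1 counts were divided between the coding Chil1-207 (49.0%) and the retained intron form Chil1-204 (51.0%), which end within the same stretch of chromosome 1. The Chil1-207 share was 57.2% in proestrus, 48.5% in estrus, 57.0% in metestrus and 87.3% in diestrus, the last on 4 counts.

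Tmem140 and Cyren lie on opposite strands of chromosome 6 (GRCm38), Tmem140 at 34863146-34874946 on the plus strand and Cyren at 34871771-34878060 on the minus strand. Of the Tmem140 sequence words of 31 bases, the length that kallisto uses by default to place reads, 36.3% also occur in Cyren, and 49.9% of those of Cyren occur in Tmem140. Strand use in counting is not given in the sources used here, so reads in the shared stretch may have been given to either gene. Tmem140-201, the coding form, shares 82.8% of its words with Cyren, yet its last 249 bases hold none that are shared, and neither do the last 755 bases of Cyren-201. Reads within these end stretches can thus be told apart, but how many reads fell within them was not examined.

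Tmem140-201 carried the estrus level. It was at 48.0, 78.9 and 78.9 CPM in estrus, 27.8, 0 and 12.2 CPM in metestrus, 2.94, 0.105 and 0.479 CPM in diestrus and 0 in all 3 proestrus libraries. Tmem140-202, a noncoding form that shares no word with Cyren, had 38 counts over the 12 libraries. Its estrus mean was 3.03 ± 2.24 CPM (SD, n = 3) and its diestrus mean 1.75 ± 0.66 CPM (SD, n = 3), so it held little of the estrus level. In diestrus the 2 forms were near each other, with Tmem140-202 at 59.0% of the gene's 17 counts.

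Cyren showed no estrus peak. Its means were 16.6 ± 2.11 CPM in proestrus, 13.7 ± 3.86 CPM in estrus, 20.3 ± 6.71 CPM in metestrus and 19.1 ± 4.06 CPM in diestrus (SD, n = 3 each). None of its 6 differences between stages passed, with adjusted p from 0.262 to 0.940 (edgeR), and the difference between estrus and diestrus was -0.47 log2 units (95% interval -1.03 to 0.09). The sum of Tmem140 and Cyren, which does not depend on how shared reads were divided, was 58.1, 99.0 and 98.9 CPM in estrus, 46.7, 16.4 and 42.3 CPM in metestrus, and at most 25.7 CPM in proestrus and diestrus. Summed in this way, estrus was 2.43 times metestrus.

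**Figure D3:**
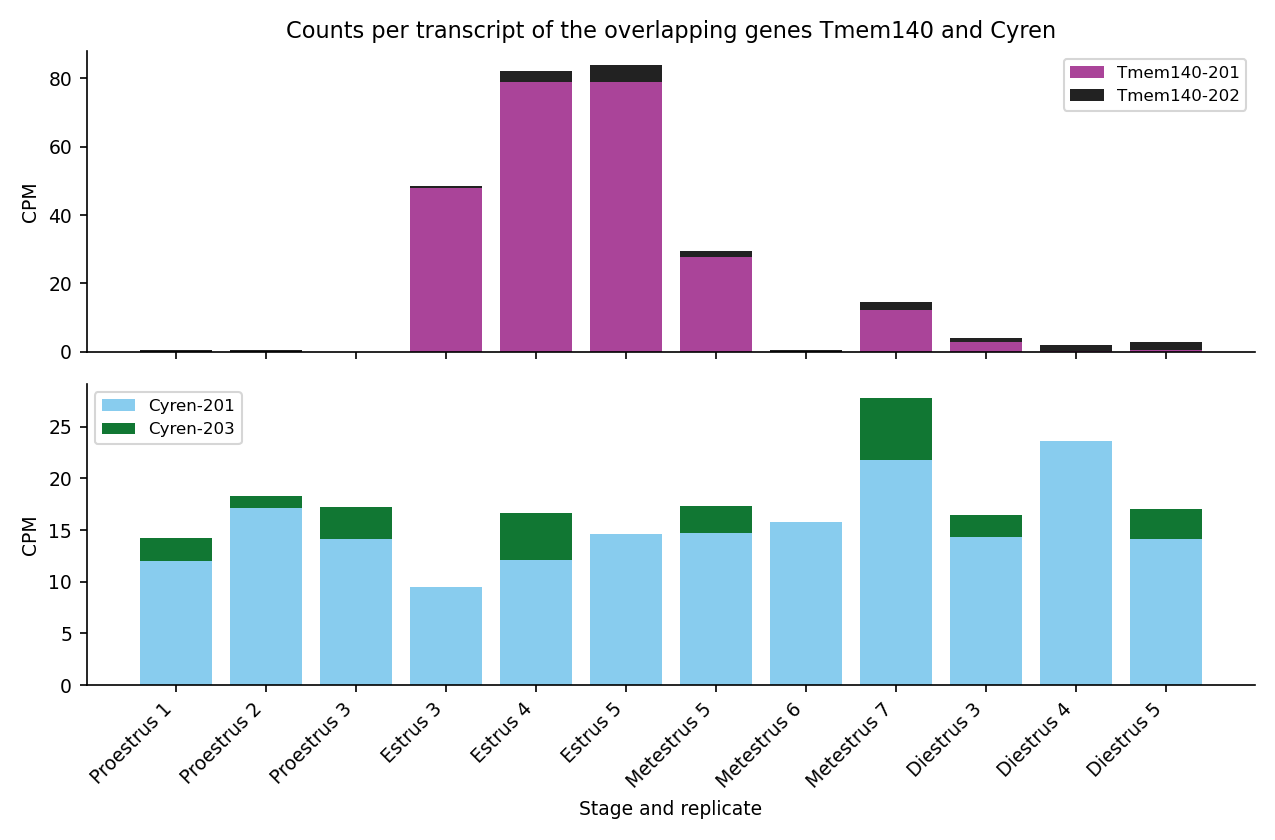
CPM assigned to the 2 Tmem140 transcripts (upper panel) and the 2 main Cyren transcripts (lower panel) in each uterus, as stacked bars from 0. Tmem140-201 reaches 78.9 CPM in estrus and is at 0 in proestrus, while Cyren stays between 9.28 and 28.0 CPM in all 12 libraries.

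Other interferon-stimulated genes were high in the same stage as Tmem140. Of 18 listed genes 15 were tested, and 14 were higher in estrus than in proestrus and 14 higher in estrus than in diestrus (edgeR, adjusted p under 0.05), with none lower. Over all tested genes, 9.67% were higher in estrus than in proestrus and 7.46% lower, and 13.0% were higher in estrus than in diestrus and 9.72% lower. None of the 15 passed between estrus and metestrus, where 4.73% of all tested genes were higher in estrus and 2.83% lower. The list medians were 1.58, 1.65 and 0.76 log2 units over proestrus, diestrus and metestrus, against 0.016, -0.00068 and -0.011 for all tested genes. The count over proestrus was 9 without proestrus replicate 1, 7 without proestrus replicate 3 and 8 without estrus replicate 4.

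Oasl2, an antiviral oligoadenylate synthetase-like protein, averaged 61.6 CPM in estrus against 13.2 CPM in proestrus (2.21 log2 units, adjusted p of 0.0012, edgeR). Ifi44, another interferon-induced gene, averaged 41.8 CPM in estrus against 5.95 CPM in diestrus (2.78 log2 units, adjusted p of 0.00082, edgeR). The summed level of the 18 genes was 537 to 907 CPM in estrus, 212 to 313 CPM in proestrus and 178 to 302 CPM in diestrus. Metestrus replicates 5 and 7, where Tmem140 was at 29.6 and 14.3 CPM, had sums of 447 and 570 CPM. Metestrus replicate 6, where Tmem140 was at 0.631 CPM, had a sum of 268 CPM, within the range of diestrus. In the promoter table, 7 of the 14 list genes with an entry held the response element that Tmem140 holds, as did 2.98% of all stretches. The first count is of genes, with a match at any start site, and the second is of stretches. The part of interferon in the Tmem140 level was not tested.

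**Figure D4:**
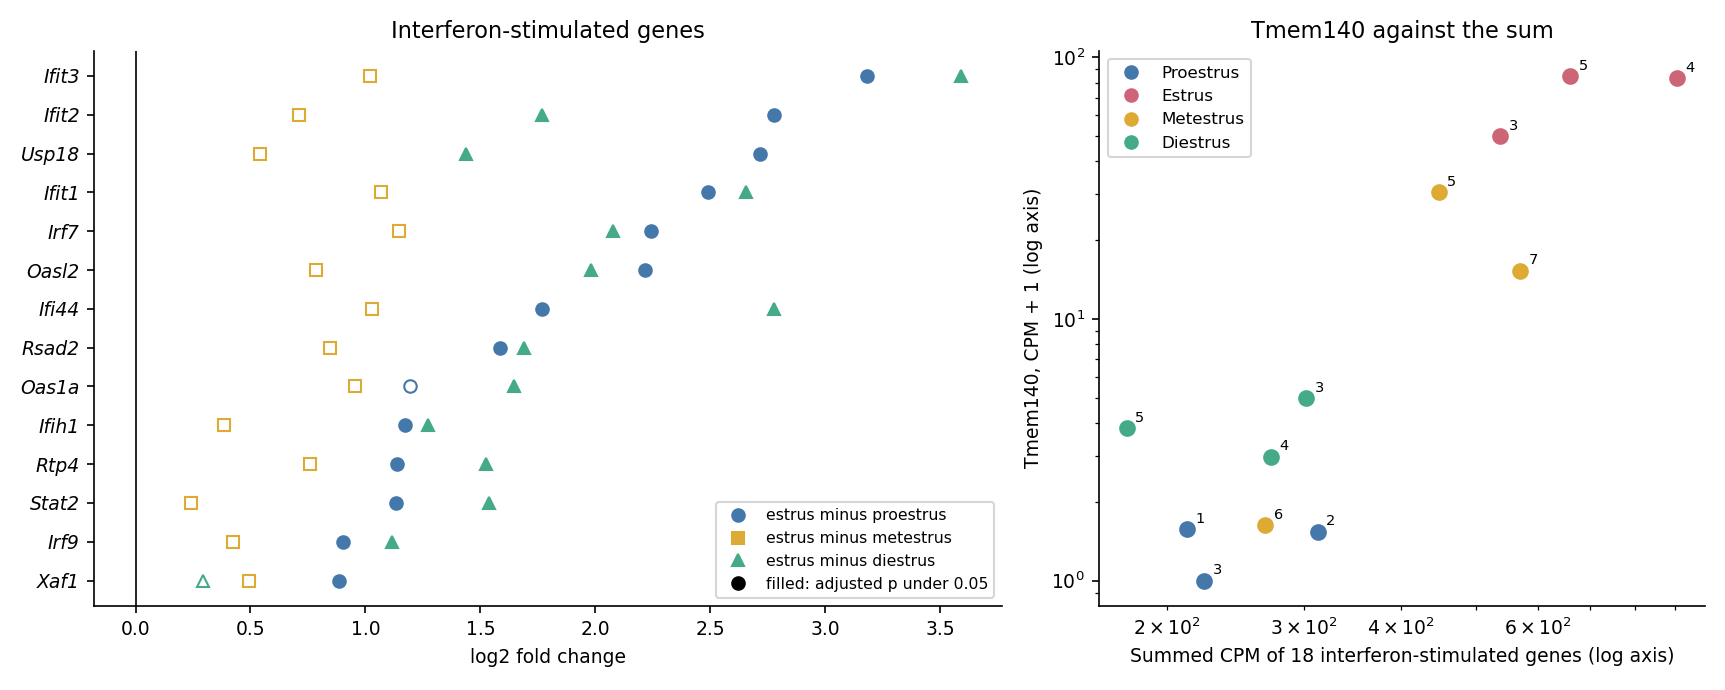
Left, log2 fold changes of 14 of the 15 tested interferon-stimulated genes between estrus and each other stage (filled symbols, adjusted p under 0.05 in edgeR). Right, Tmem140 (CPM + 1) against the summed CPM of the 18 listed genes in each uterus, both on log axes, with the replicate number; the 3 estrus uteri and metestrus replicates 5 and 7 lie at sums of 447 CPM or more, and the other 7 uteri at 313 CPM or less.

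Macrophage and monocyte markers were also high in estrus as a sum, but they parted from these genes in other stages. Their sum was higher in diestrus than in proestrus, where the sums of the interferon-stimulated genes overlapped. Of 12 markers 11 were tested, and 11 were higher in estrus than in proestrus, 6 higher than in diestrus and 3 higher than in metestrus. Over all tested genes 9.67%, 13.0% and 4.73% were higher. The marker medians were 1.26, 0.89 and 0.55 log2 units, against 0.016, -0.00068 and -0.011 for all tested genes. The count over proestrus was 7 without proestrus replicate 1 or estrus replicate 4, and that over metestrus was 1 to 5 without single libraries. Their summed level was 990 to 1106 CPM in estrus, 390 to 456 CPM in proestrus, 554 to 972 CPM in metestrus and 557 to 771 CPM in diestrus, and none of the 12 was at 0 in any stage mean. Cd14, a lipopolysaccharide co-receptor, averaged 119 CPM in estrus and 20.4 to 21.9 CPM in the other stages. Csf1r, the receptor for macrophage colony-stimulating factor, averaged 144 CPM in estrus and 55.8 CPM in proestrus. The part of these cells in the levels of Tmem140, Chil1 and the interferon-stimulated genes was not tested.

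Prom1 is an epithelial apical protein, and epithelial markers are the background against which it is read. Their summed level was 2022 to 2539 CPM in estrus and 2088 to 2806 CPM in proestrus, ranges that overlap. In metestrus the sum was 746 to 1425 CPM and in diestrus 751 to 928 CPM. Of the 12 epithelial markers, 3 were higher in estrus than in proestrus, 6 higher than in metestrus and 11 higher than in diestrus, against 9.67%, 4.73% and 13.0% of all tested genes. The count over metestrus was 3 without estrus replicate 5 and 10 without metestrus replicate 5. Elf3, an epithelial transcription factor, averaged 311 CPM in estrus, 254 CPM in proestrus and 20.007 CPM in diestrus. Krt7, a keratin of simple epithelia, averaged 276 CPM in estrus and 518 CPM in proestrus (-0.91 log2 units), with an adjusted p of 0.053 (edgeR) that fell on either side of the threshold between alternatives. The part of epithelial content in the Prom1 level was not tested.

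Proteins of apical protrusions were tested alongside Prom1. Of 16 listed genes 10 were tested; 2 were higher in estrus than in proestrus, 3 higher and 1 lower than in metestrus, and 5 higher and 2 lower than in diestrus. Over all tested genes the shares higher were 9.67%, 4.73% and 13.0%, and the shares lower were 7.46%, 2.83% and 9.72%. The count over proestrus was 0 without proestrus replicate 1 or any 1 of the estrus replicates, and the 5 over diestrus became 3 without diestrus replicate 4. Eps8, which caps and bundles actin in microvilli, averaged 94.0 CPM in estrus, 55.3 CPM in proestrus, 34.8 CPM in metestrus and 21.5 CPM in diestrus, a difference of 2.13 log2 units from diestrus (adjusted p of 3.6e-05, edgeR). Ezr (ezrin), which links membrane proteins to cortical actin, averaged 315 CPM in estrus and 119 CPM in diestrus (1.40 log2 units, adjusted p of 0.00011, edgeR). Slc9a3r1, an ezrin-binding scaffold, averaged 53.2 and 31.3 CPM in those stages (0.77 log2 units, adjusted p of 0.0029, edgeR). Prom2, the other prominin, was at no more than 0.33 CPM in any stage mean and was not tested.

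Chil1 was read against its own family and against cells known to make it. Of 9 other glycoside hydrolase 18 genes 3 were tested. Ovgp1, an oviductal glycoprotein, was higher in estrus than in proestrus (44.8 against 14.5 CPM, 1.61 log2 units, adjusted p of 0.032, edgeR), as were 9.67% of all tested genes. Its call was lost without proestrus replicate 1 or 2 or any 1 of the estrus replicates. Chid1 stayed between 64.4 and 75.2 CPM and Ctbs, a lysosomal chitobiase, between 12.4 and 14.7 CPM, and neither passed in any estrus comparison. Chil3, Chil4, Chia1 and Chit1, the last a neighbour of Chil1 on chromosome 1, were at no more than 1.76 CPM in any stage mean. No sequence word of 31 bases of Chil1 occurs in another gene, so its reads were not shared with these relatives.

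Of 16 neutrophil markers 7 were tested, with 1, 2 and 3 of them higher in estrus than in proestrus, metestrus and diestrus and none lower, where 9.67%, 4.73% and 13.0% of all tested genes were higher; the 2 over metestrus became 0 without estrus replicate 4 or 5 or metestrus replicate 6. Lcn2 and Ltf, which uterine epithelium also makes under estrogen, accounted for most of the summed level of 5662 to 9202 CPM in estrus, whereas Camp, Ngp and Elane were at 1.16 CPM or less in every stage mean. Mmp9, a gelatinase, averaged 13.4 CPM in estrus and 2.47 CPM in proestrus (2.39 log2 units, adjusted p of 0.0064, edgeR). In estrus replicates 3, 4 and 5, Lcn2 was at 3159, 4406 and 5089 CPM, Ltf at 2463, 2234 and 4070 CPM and Mmp9 at 13.6, 14.3 and 12.4 CPM. In the same order, S100a8 was at 2.47, 14.9 and 0.916 CPM, S100a9 at 4.95, 26.3 and 0.916 CPM and Cxcr2 at 6.19, 13.2 and 1.37 CPM. These markers were highest in replicate 4, as Chil1 was, but lowest in replicate 5, where Chil1 was at 92.5 CPM. Retnlg, the remaining tested marker, was highest in replicate 5, at 25.2 CPM. The macrophage sum ranged from 990 to 1106 CPM over the 3 estrus uteri, in which Chil1 ranged 16.8-fold. The part of neutrophils in the Chil1 level was not tested.

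Proteins reported to bind CHI3L1 gave no common direction. Of the 5 listed, Sdc1 (syndecan 1) was lower in estrus than in proestrus, at 67.9 against 109 CPM (-0.68 log2 units, adjusted p of 0.021, edgeR), as were 7.46% of all tested genes. The Sdc1 call was lost without proestrus replicate 1 or 3 or any 1 of the estrus replicates. None of the 5 passed between estrus and metestrus, where 4.73% of all tested genes were higher and 2.83% lower. Against diestrus 1 was higher (0 without estrus replicate 4) and 2 were lower, where 13.0% of all tested genes were higher and 9.72% lower. Cd44, a hyaluronan receptor, averaged 37.1 CPM in estrus and 95.6 CPM in diestrus (-1.37 log2 units, adjusted p of 0.0075, edgeR). Lgals3 (galectin 3) averaged 97.1 CPM in estrus and 51.0 CPM in diestrus (0.93 log2 units, adjusted p of 0.0084, edgeR).

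No matrix protein listed beside Abi3bp was called higher in estrus. Over all tested genes 9.67%, 4.73% and 13.0% were higher in estrus than in proestrus, metestrus and diestrus. With 11 genes tested, a count of 0 is not read as a result. Of 14 listed ABI family and fibronectin type III genes 11 were tested, and none passed between estrus and proestrus or metestrus. The shares of all tested genes that were lower there were 7.46% and 2.83%. Against diestrus 4 were lower in estrus (2 without estrus replicate 3 or 4 or diestrus replicate 5), where 9.72% of all tested genes were lower. Those named by rule, Tnc (tenascin C), Col14a1 and Col12a1, averaged 4.61, 20.7 and 6.48 CPM in estrus and 26.4, 83.1 and 15.4 CPM in diestrus. Abi3, whose product Abi3bp was named for binding, averaged 2.49 to 5.67 CPM over the stages and did not pass in any estrus comparison. The stromal markers summed to 8529 to 8904 CPM in estrus and 10095 to 10283 CPM in proestrus. In metestrus their sum was 5466 to 11660 CPM and in diestrus 7265 to 9587 CPM, ranges that include that of estrus. Of the 10 stromal markers, 1 was higher and 2 were lower in estrus than in proestrus, against 9.67% and 7.46% of all tested genes. The 1 higher, Pdgfra, a growth factor receptor of fibroblasts, averaged 135 against 46.2 CPM (1.55 log2 units, adjusted p of 6.7e-05, edgeR). Lower were Col1a1 (1548 against 3243 CPM, adjusted p of 0.028, edgeR) and Hoxa11 (14.0 against 30.0 CPM, adjusted p of 0.035, edgeR). Against metestrus 1 of the 10 stromal markers was higher and 1 lower, and against diestrus 1 was higher and 2 were lower. Over all tested genes 4.73% were higher and 2.83% lower against metestrus, and 13.0% and 9.72% against diestrus. Smooth muscle markers summed to 8501 to 10917 CPM in estrus, 6373 to 8999 CPM in proestrus, 5423 to 7603 CPM in metestrus and 6349 to 6676 CPM in diestrus, with 3 of 8 higher in estrus than in each other stage (1 over metestrus without any 1 of the estrus replicates; over all tested genes 9.67%, 4.73% and 13.0% were higher) and 1, Myocd, lower than in diestrus (-0.86 log2 units, adjusted p of 0.0396, edgeR). The part of either cell type in the Abi3bp level was not tested.

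Estrogen-responsive uterine genes gave a mixed picture in the same uteri. Of 18 listed 16 were tested, and 3 were higher and 4 lower in estrus than in proestrus, 6 higher and 3 lower than in metestrus, and 10 higher and 3 lower than in diestrus. Over all tested genes, 9.67% were higher and 7.46% lower than in proestrus, 4.73% and 2.83% than in metestrus, and 13.0% and 9.72% than in diestrus. The 3 over proestrus became 1 without any 1 of the proestrus replicates or without estrus replicate 4 or 5. Padi1, a peptidylarginine deiminase, averaged 157 CPM in estrus, 136 CPM in proestrus, 24.9 CPM in metestrus and 3.76 CPM in diestrus. Igf1, a growth factor of the uterine stroma, was lower in estrus than in proestrus, at 96.4 against 437 CPM (-2.18 log2 units, adjusted p of 0.0034, edgeR). In metestrus, where Tmem140 was uneven, the summed level of this list was 5592 CPM in replicate 5 and 1632 and 1505 CPM in replicates 6 and 7, so replicate 5 was high for both. Replicate 7, with the second highest Tmem140 level of metestrus, was not.

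The genes most like each member, by Pearson correlation of log2 CPM over the 12 uteri among 11408 genes with a mean of at least 5 CPM, differed from member to member, and no gene appeared for more than 1. The libraries share stage and depth, so the values are a description. Prom1 was most like Aldoa, a glycolytic aldolase (r = 0.975), Cp, the copper carrier ceruloplasmin (r = 0.970), and Qsox1, a secreted sulfhydryl oxidase (r = 0.966). Cp averaged 476 ± 47.3 CPM in estrus and 88.4 ± 28.1 CPM in proestrus (SD, n = 3 each), a step near that of Prom1. Abi3bp was most like Dmd, which encodes dystrophin of the muscle membrane (r = 0.961), Rspo3, a secreted enhancer of Wnt signalling (r = 0.948), and Adam8, a membrane metalloprotease (r = 0.944). Rspo3 averaged 241 ± 24.1 CPM in estrus and 64.4 ± 1.11 CPM in proestrus (SD, n = 3 each).

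Chil1 was most like Cd47, the surface protein that restrains engulfment by macrophages (r = 0.969), Tm7sf2, a sterol reductase (r = 0.944), and Zranb1, a deubiquitinase (r = 0.943). Their steps were far smaller: Cd47 averaged 372 ± 58.7 CPM in estrus and 165 ± 8.54 CPM in diestrus (SD, n = 3 each). Tmem140 was most like Pik3ip1, an inhibitor of phosphatidylinositol 3-kinase (r = 0.991), Cnppd1, a cyclin-related gene (r = 0.984), and Fbxo32, the muscle ubiquitin ligase atrogin 1 (r = 0.9796). Pik3ip1 averaged 81.3 ± 1.95 CPM in estrus and 16.2 ± 1.82 CPM in proestrus, and its metestrus SD, 19.9 CPM around a mean of 39.5 CPM (n = 3), was the largest of its 4 stages, as it was for Cnppd1 (32.2 CPM) and Fbxo32 (85.0 CPM). Among the members themselves r was highest between Prom1 and Chil1 (0.949) and lowest between Abi3bp and Chil1 (0.794).

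**Figure D5:**
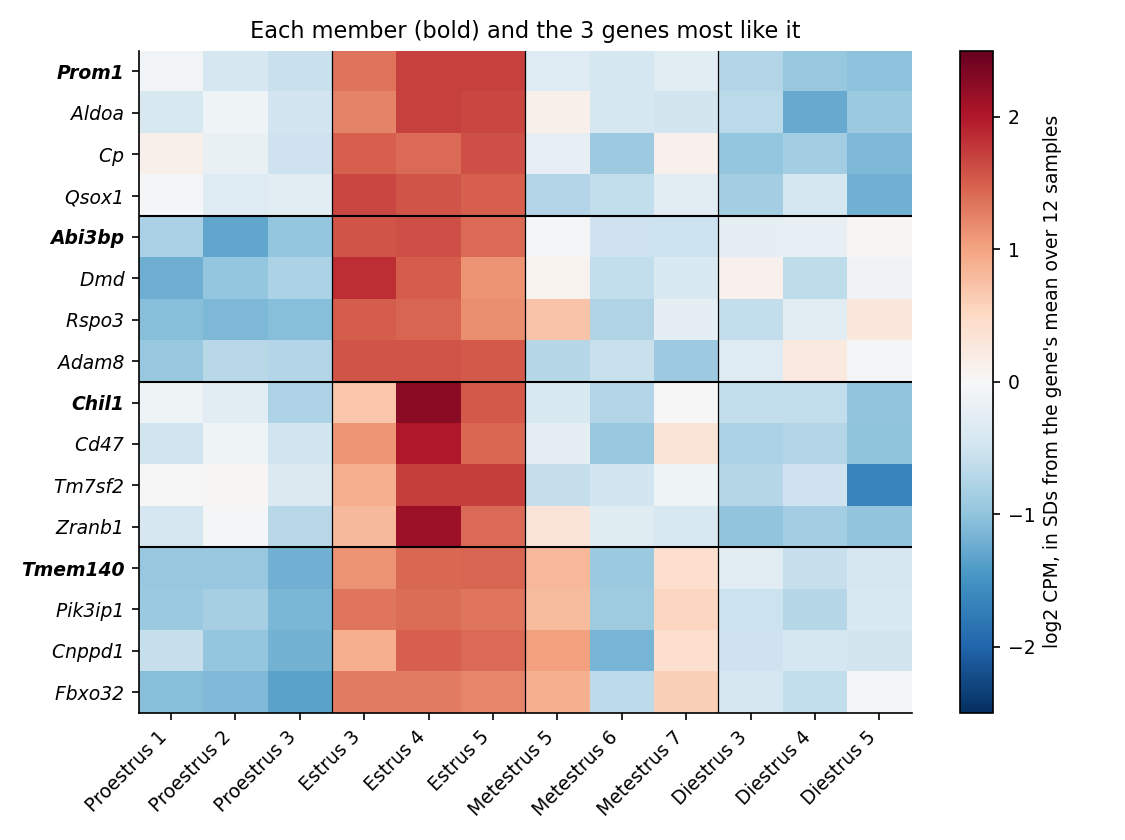
Log2 CPM of each member (bold) and the 3 genes most like it in the 12 uteri, in SDs from each gene's own mean. Estrus columns are high in all 16 genes, Chil1, Cd47 and Zranb1 are highest in estrus replicate 4, and Tmem140 and its genes are low in metestrus replicate 6 and high in replicates 5 and 7.

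Of the tested genes within 100 kb of a member, only Adgrg7 passed in an estrus comparison. Over all tested genes, 9.67% were higher and 7.46% lower in estrus than in proestrus. The shares were 4.73% and 2.83% against metestrus, and 13.0% and 9.72% against diestrus. The tested neighbours are too few to be set against these shares. Within 100 kb of Prom1, Cd38, an NAD-degrading surface enzyme, averaged 12.6 to 17.0 CPM over the stages and Tapt1 9.68 to 15.1 CPM, and neither passed in an estrus comparison. Tfg, which begins 197 bases beyond the end of Abi3bp on the opposite strand, averaged 19.3 CPM in estrus and 24.1 to 28.4 CPM elsewhere. Adgrg7, an adhesion receptor gene 34474 bases from Abi3bp, averaged 21.1 CPM in estrus, 11.6 CPM in proestrus, 4.28 CPM in metestrus and 4.99 CPM in diestrus, and was higher in estrus than in metestrus (adjusted p of 0.031) and diestrus (adjusted p of 0.016, edgeR). None of the 7 annotated genes within 100 kb of Chil1 reached the minimum count. Beside Tmem140, Cald1 (caldesmon) averaged 840 to 949 CPM over the stages and Wdr91 2.16 to 5.28 CPM, and neither passed between estrus and another stage. Slc23a4, also near Tmem140, averaged 6.08 CPM in proestrus and 0.731 CPM in diestrus (3.01 log2 units, adjusted p of 0.0378, edgeR).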

How the data were processed

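Whole uteri were profiled by 3' TagSeq. The deposited tables give, per transcript, estimated counts and TPM made by the authors with kallisto, per the submitters' processing notes; FastQC and DESeq2 are also named there. The build, annotation and strand setting are not given in the sources used here. Transcript identifiers were matched without version to GENCODE M21 (GRCm38): 116640 of 119414 matched, and the rest held 0.619% to 0.774% of counts. Estimated counts, of which 66.9% of those above 0 were not whole, were summed per gene and rounded. edgeR 4.0.16 (filterByExpr, TMM, quasi-likelihood test, R 4.3.3) was fitted to all 12 libraries with 1 coefficient per stage, and p-values were adjusted by Benjamini-Hochberg over 12052 genes. CPM divides by the tested-gene total times the TMM factor (0.908 to 1.05). The common biological coefficient of variation was 20.6%. The fits were tested on simulated data. Deposited TPM entered as an alternative scale only. The labels say that samples were collected in triplicate; the p-values measure the spread between these samples.

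The members and gene lists were chosen with earlier results of these data known. Named were the members, Cyren, genes within 100 kb, the 3 genes most like each member, family members and up to 3 tested genes per list with the smallest adjusted p in the estrus comparisons. The other tested neutrophil markers were also named. Same-numbered samples of different stages correlated at -0.04 to 0.16 and were not taken as pairs. A gene that the naming rule selects is not reported here. Alternatives were library totals, upper-quartile factors, DESeq2 1.42.0, limma-voom 3.58.1, no minimum or a mean of 10 counts, counts scaled from TPM, 2 stages alone, a replicate block and leaving out each library.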

Additional observations from a re-analysis of the deposited data

How the results depend on the processing

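With 3 uteri a stage, no test for a sample far from the others was made. Of 246 refits of the members among the other stages, 211 kept direction and side of the threshold. These include Chil1 and Tmem140, and differences that were not called to begin with. Between proestrus and diestrus, Prom1 kept its call in 5 of 9 other settings and in 6 of 12 fits without 1 library. Abi3bp kept its call there in 7 of 9 and 10 of 12. The 9 settings and the 246 refits include the replicate block, which cannot decide calls with proestrus or metestrus, as explained below. Prom1 between proestrus and diestrus was not called with library totals (0.72 log2 units), limma-voom (0.73) or counts scaled from TPM (0.75), and ranged from 0.55 to 0.90 without single libraries. Abi3bp between these stages was not called with counts scaled from TPM (-0.71) and ranged from -0.87 to -0.66. Tmem140, for which no call is read, was 5.17 between metestrus and proestrus and did not pass with limma-voom (3.91) or counts scaled from TPM (6.52) and ranged from 4.17 to 5.71; between metestrus and diestrus it passed with no minimum count (2.35) and ranged from 1.35 to 2.89. The Prom1 difference between metestrus and proestrus, near 0, turned positive with DESeq2 (0.0018), upper-quartile factors (0.0023), limma-voom (0.026), counts scaled from TPM (0.051) and the 2 stages alone (0.0081), and ranged from -0.14 to 0.20; that of Chil1 ranged from -0.69 to 0.75. Cyren between metestrus and diestrus was -0.0066 with library totals and ranged from -0.21 to 0.28, and between metestrus and proestrus from -0.0061 to 0.43. The cause was not tested.

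Replicate numbers do not pair the animals. In proestrus only replicate 3, and in metestrus only replicate 5, has a number that other stages share. A replicate block absorbs the other libraries of both stages, so differences with these stages rest on those replicates alone. The block cannot decide calls or signs there, and only effect sizes are given. Between proestrus and diestrus they were 0.56 for Prom1, -0.70 for Abi3bp and 0.20 for Cyren. Between metestrus and diestrus they were 3.09 for Tmem140, 0.063 for Abi3bp and -0.15 for Cyren. Between metestrus and proestrus they were 0.18 for Prom1, -0.11 for Chil1 and -0.35 for Cyren. Estrus and diestrus share all their numbers. Between them 2977 genes were called with the block, against 2744 without it, and 14 of 14 interferon-stimulated genes kept their call.

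Estrus over the next stage was 2.93 for Abi3bp by medians, 2.66 to 2.91 without single libraries, and for Tmem140 2.43 summed with Cyren, 1.74 for Tmem140-202 alone and 3.27 to 9.60 without single libraries. The interferon count over proestrus ranged from 7, without proestrus replicate 3, to 15, and the macrophage count from 7, without proestrus replicate 1, to 11. Single libraries moved all counts of called genes: 1103 to 2413 between estrus and proestrus, 339 to 1364 between estrus and metestrus, 1913 to 3146 between estrus and diestrus, 519 to 1281 between proestrus and diestrus, 5 to 173 between metestrus and diestrus, and 78 to 1080 between metestrus and proestrus. Between metestrus and diestrus 0 genes were called with counts scaled from TPM and 256 with no minimum count, where edgeR gave 1361 at an unadjusted p under 0.05; between metestrus and proestrus 42 were called with the 2 stages alone and 936 with no minimum count, and between estrus and diestrus 1798 with counts scaled from TPM. Of the 12 genes most like a member, only Rspo3 stayed among the first 3 by Spearman's rho and none by stage means. Chil1 outside estrus and Tmem140 in proestrus rest on few counts.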
